A study of Arabidopsis thaliana with 7 samples.

Results

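The loci described here are 341 of the 25025 regions of the Arabidopsis thaliana genome at which small RNAs of control roots clustered. They were chosen from the deposited small RNA table by 3 conditions. Reads longer than 24 nt made up less than 0.2 of the locus, 21 nt was the most frequent of the sizes 20 to 24 nt, and the authors had not marked the locus as a microRNA. The lengths of the reads therefore chose the members, and every value of the small RNA table is given below as a description, without a test. The 341 loci held 9863820 of the 87277746 reads in the table, or 11.3%. The other loci of the table were 308 led by 22 or 23 nt reads, 17371 led by 24 nt reads, 74 marked as microRNA by the authors and 6931 rich in longer reads.

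Roots of 14-day-old seedlings were harvested after 7 days on medium with 0 µM phosphate (low phosphate) or 500 µM phosphate (control). Ribosome footprints of 26 to 32 nt, poly(A) RNA and the small RNA of 18 to 28 nt came from plants of the Columbia-0 background that carried a tagged ribosomal protein under the 35S promoter, named RPL18B in the protocols and RPL8 in the sample characteristics. Double-stranded RNA (dsRNA) came from roots labelled Col-0. Footprints, poly(A) RNA and dsRNA had 2 libraries per condition, which the series' design text calls bioreplicates, so that every n below is 2 per group. The labels do not say whether the 2 were separate cultures, so p-values measure the spread between these libraries. The small RNA table, which the labels tie to control roots, gave 1 total per locus with no spread between samples. Which libraries were summed in it, and how reads that match several loci were placed, is not stated in the sources used here, so shares of its reads may count a sequence shared by several loci in a way that is not known. Small RNA of low phosphate roots was not analysed here.

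Plant small RNAs of 21 nt come from several routes. MicroRNAs are cut by DICER-LIKE 1 (DCL1) from a hairpin that lies on one strand. Trans-acting siRNAs arise when a microRNA directs the cleavage of a transcript from a TAS gene, RNA-DEPENDENT RNA POLYMERASE 6 (RDR6) and SGS3 copy the fragment into dsRNA, and DCL4 cuts that dsRNA in steps from the cleavage site, so the reads lie on both strands and in phase. The same steps act on some coding transcripts, among them those of pentatricopeptide repeat (PPR) proteins, which bind organelle RNA, and of NB-LRR disease resistance proteins.

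The sequences that lead the largest loci show these kinds side by side. The first set gives the most abundant small RNA of the locus on each TAS gene, since those genes define the phased class. Capitals mark bases 2 to 8, the seed.

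TAS1A: uGAUAUUUguaguaauggcga

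TAS1B: aAUGGGAGauguccggaauga

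TAS1C: uUUCAAGUcgucuaaagaacaguu

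TAS2: uUUUGCAUauacucgaauacc

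TAS3: uUGAGAAGagauagaauagaa

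TAS3B: uUUUCUUGaccuuguaagacc

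The next set gives the leading small RNAs of the loci with most reads on annotated microRNA genes, again with the seed in capitals, because they carried most of the reads of the 341 loci.

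MIR159a: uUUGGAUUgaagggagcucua

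MIR165b: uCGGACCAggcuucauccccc

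MIR166a: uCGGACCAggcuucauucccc

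MIR403: uUAGAUUCacgcacaaacucg

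MIR157a: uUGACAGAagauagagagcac

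The leading small RNAs of 10 loci in the PPR gene cluster were 2 sequences that differ by 1 base, U3C, counted from the 5′ end of the first. Capitals mark that base. The first led 7 loci and the second led 3.

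PPR sequence 1: aaUggauuauguaagagaggu

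PPR sequence 2: aaCggauuauguaagagaggu

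The working description of these loci as not microRNA went against the annotation. Of the 341 loci, 79 overlapped an annotated microRNA gene, and these held 86.5% of the reads of all 341. TAS genes were overlapped by 7 loci with 8.55% of the reads. Coding genes without a microRNA or TAS gene were overlapped by 214 loci, the most numerous kind, with only 3.69% of the reads. The rest were 20 loci on tRNA, snRNA or snoRNA genes, 12 on other genes and 9 on no gene. The median locus had 370 reads and was 548 bp long. Every locus of the table had at least 90 reads.

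**Figure D1:**
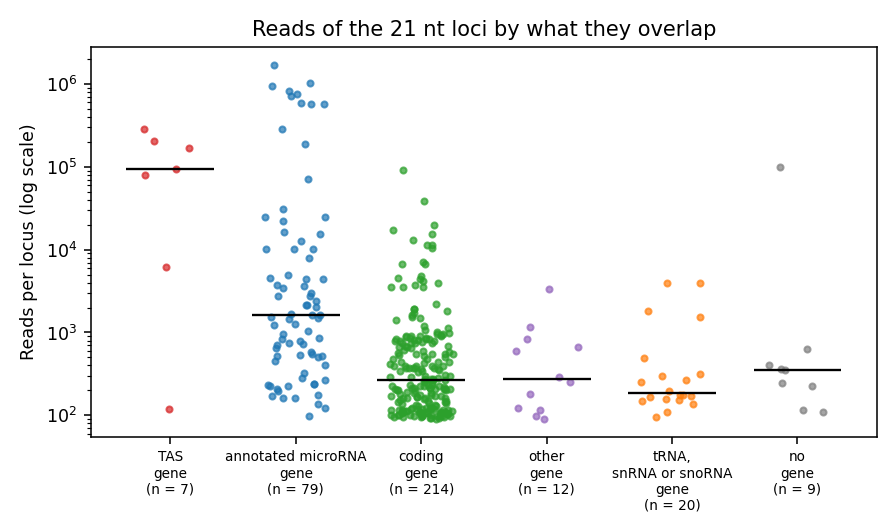
Reads per locus (log scale) for the 341 loci of 21 nt, by the kind of gene they overlap; each point is 1 locus and each line the median of its kind. The medians were 95180 reads on TAS genes, 1636 on microRNA genes and 267.5 on coding genes.

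Close to the thresholds of the rule, the locus on MS2 was just inside with 35 long reads of 176, and a locus at STN1 was just outside with 47 of 235. The locus on IBR3 was just inside with 28 reads each of 21 and 22 nt, the 1 tie among the 341, and a locus at AT1G57320 was just outside with 58 reads of 21 nt and 59 of 23 nt. In 294 of the 341 loci, 21 nt reads were more than 0.5 of the reads of 20 to 24 nt.

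The loci with most reads were on microRNA genes. MIR159a, whose product restrains MYB genes, had 1699257 reads at chr1:27713221-27713502 (TAIR10), and 98.1% of them were the 1 sequence printed above. The locus on MIR165b had 1035151 reads and that on MIR403 had 961656; the products of these genes act on class III homeodomain-leucine zipper genes and on AGO2. Of the 10 loci with most reads, 9 were on microRNA genes (MIR159a, MIR165b, MIR403, MIR166a, MIR157a, MIR157c, MIR166b, MIR166c and MIR166e) and the tenth was TAS2. At these 9 the reads lay on 1 strand, to the 3 decimals given, and their leading sequence made up from 68.5% of reads at MIR166a to 98.1% at MIR159a. The MIR166 sequence was counted at 4 loci, MIR166a, MIR166b, MIR166c and MIR166e, with 564689 to 565712 reads at each. Since the placing of such reads is not known, the 4 loci cannot be told apart by these counts. The 341 loci had 308 different leading sequences, and 18 sequences were shared among 51 loci.

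Seeds grouped the loci further. The 341 leading sequences had 288 seeds, and 26 of them were shared by 79 loci. The seed of the MIR157 product led 8 loci, 4 on microRNA genes (MIR156j, MIR157a, MIR157c and MIR157d) and 4 on coding genes of the SPL family (SPL11, SPL13A, SPL13B and SPL15), which are the targets of that microRNA family; the locus on MIR156j also overlaps SPL9. The seed of MIR165 and MIR166 led 5 loci, all on microRNA genes.

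The TAS loci were the most strongly phased. The phasing score, the authors' measure of how far reads fall in one register, was given only for loci with reads on both strands, which were 169 of the 341. It was 2155.7 at TAS3 (chr3:5861922-5862526), 1776.5 at TAS1A (chr2:11720600-11722453), 1554.0 at TAS1B (chr1:18548534-18550168), 1100 at TAS2 (chr2:16539324-16540442) and 995.6 at TAS1C (chr2:16536806-16538349). Those 5 scores were the 5 highest of the 341 loci, each in a register of 21 nt. The fraction of reads on the top strand was between 0.268 at TAS1A and 0.564 at TAS2.

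The TAS loci differed among themselves in depth and read length. TAS2, whose siRNAs act on PPR transcripts, had 287579 reads, of which 70.3% were 21 nt and 22.5% were 22 nt. TAS3, whose siRNAs act on the auxin response factors ARF2, ARF3 and ARF4, had 205966 reads, of which 88.0% were 21 nt. TAS1C had 168989 reads, of which only 48.2% were 21 nt and 25.8% were 24 nt, and its leading sequence was the only 24 nt one among the TAS loci. TAS1A had 95180 reads and TAS1B had 78800.

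TAS3B did not have the form of the others. Its locus (chr5:20134506-20134682) had 6248 reads with 0.999 on the top strand, so no phasing score was given, and 91.7% of the reads were the 1 sequence printed above. A further locus of 119 reads lay at chr3:5861504-5861801 within TAS3 and had a phasing score of 4.0. No locus of 21 nt overlapped TAS3C or TAS4.

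**Figure D2:**
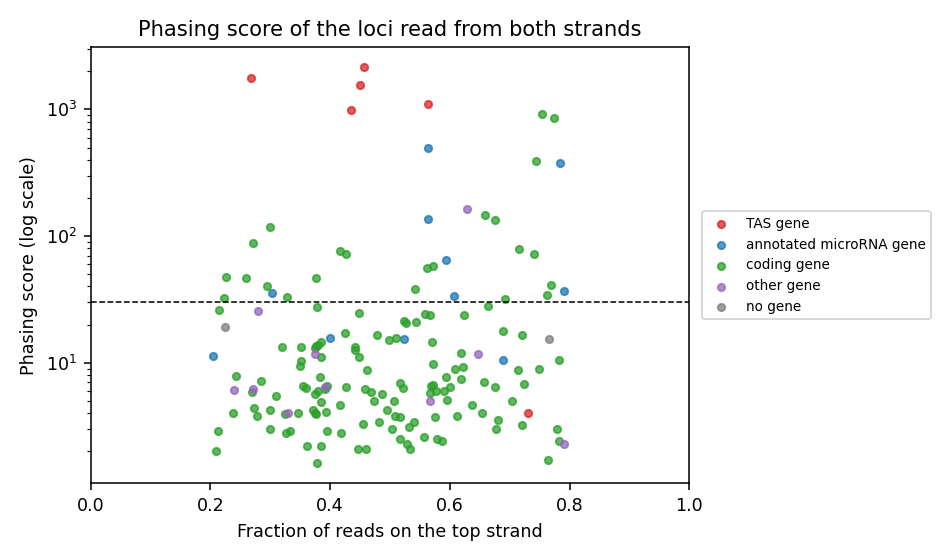
Phasing score (log scale) against the fraction of reads on the top strand for the 169 loci of 21 nt with a score; each point is 1 locus, coloured by the gene it overlaps, and the dashed line is a score of 30. The 5 TAS points with scores of 995.6 and above stand over all others, and the 1 low TAS point is the second locus on TAS3.

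The PPR cluster on chromosome 1 came next. Of the 15 PPR genes listed for this purpose, 13 had a locus of 21 nt, 12 on chromosome 1 and 1 (AT5G16640) on chromosome 5. AT1G63130 had 15474 reads, AT1G62910 had 15389, AT1G63150 had 13148, RPF3 had 11292 and AT1G63080 had 10448; RPF3 and RPF2 act in the processing of mitochondrial transcripts. The lowest was AT1G63230 with 757 reads. Phasing scores were 919.7 at AT1G63150, 851.4 at AT1G62910, 496.9 at AT1G63130 and 392.8 at RPF3. These were the highest of all members after the 5 TAS loci, and RDUF1 followed with 376.2. AT1G62590, RPF2 and AT1G63330 were read mainly from 1 strand and had no score. Reads of 21 nt made up 57.6% at the pseudogene AT1G62860, where 39.1% were 22 nt and the register was 22 nt, and at least 73.7% at each of the other 12.

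The first of the 2 related PPR sequences led the loci on AT1G62590, RPF2, AT1G62914, AT1G63070, AT1G63080, AT1G63330 and AT1G63400, with 790 to 852 reads at each. The second led those on AT1G62910, RPF3 and AT1G63150, with 2518 to 2568 reads. AT1G63070 was not on the list and is named because of this sequence. As with MIR166, near-equal counts at several loci mean that the source gene of a read cannot be told from the table.

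Other known sources of 21 nt siRNA had less. The locus on ARF4 (chr5:24309507-24309736), a target of TAS3 siRNAs, had 822 reads and a phasing score of 76.3. The auxin receptor genes AFB2 and AFB3, targets of miR393, had 831 and 808 reads with scores of 34.0 and 25.9, while no locus of 21 nt overlapped TIR1 or AFB1. AGO1, the main slicer of microRNA and siRNA, carried 4 loci of 192 to 738 reads, the largest with a score of 57.9, and DCL1 carried 1 of 267 reads with a score of 27.3. Among 11 NB-LRR genes, 4 had a locus. That on AT1G12290 is the locus of MIR472 with 22188 reads, and the loci on AT5G43730, AT5G43740 and AT1G51480 had 1065, 228 and 93 reads with scores of 21.4, 11.9 and 3.9.

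Of the 341 loci, 36 had a phasing score of at least 30, and the register was 21 nt in 21 of these. By kind, these 36 were 23 on coding genes, 7 on microRNA genes, 5 on TAS genes and 1 on another gene. Loci on both a microRNA gene and a coding gene count here as microRNA genes, among them those on AT1G63130 and RDUF1. All 7 were read from both strands. The median score of the 169 loci with one was 7.7. Among loci led by 24 nt reads, the median was 14.1 and 24.4% had a score of at least 30. This compares with 10.6% (7.50% to 14.3%, exact 95% binomial interval) of the 21 nt loci, so a score of 30 did not mark the 21 nt class. Both shares are over all loci, with or without a score, and 14770 of the 17371 loci of 24 nt had one, against 169 of the 341. Of the 4231 loci of 24 nt with a score of at least 30, 974 were in a register of 21 nt. The scores reached 2155.7 in the 21 nt class and 646.2 in the 24 nt class.

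**Figure D3:**
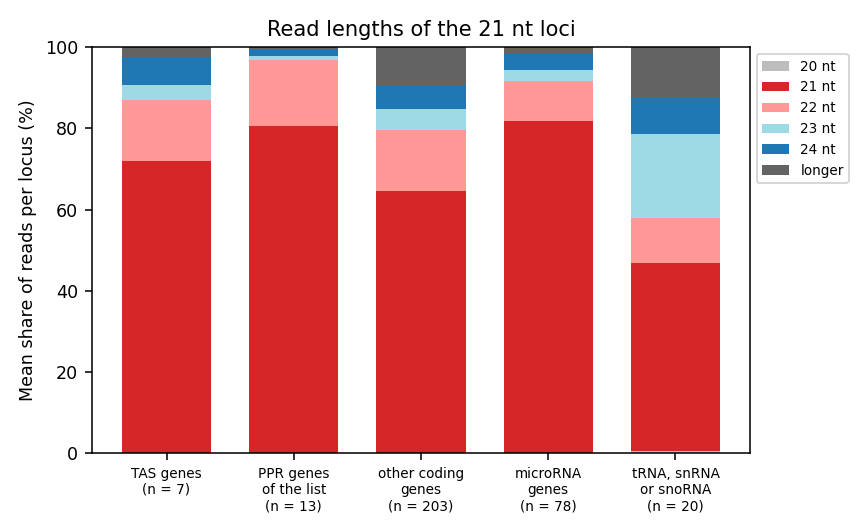
Mean share of reads of each length (% of the reads of a locus) for loci of 21 nt on TAS genes, on the listed PPR genes, on other coding genes, on microRNA genes and on tRNA, snRNA or snoRNA genes. Reads of 21 nt averaged 80.5% on PPR genes and 71.9% on TAS genes, and 46.3% on tRNA, snRNA or snoRNA genes, where 23 nt reads averaged 20.8%.

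Some loci on coding genes were led by a sequence close to that of a microRNA gene. At 15 of the 214 loci, the leading sequence matched the leading sequence of a microRNA gene's locus with at most 2 mismatches. The search allowed a shift of up to 2 bases, and the matches found were shifted by at most 1. Of the 12 of these 15 with a known gene strand, 10 were antisense to the gene. SPL2 (chr5:17360753-17360824), a transcription factor gene of the miR156 target family, had 38588 reads, antisense to the gene. SPL10, SPL11, SPL13A, SPL13B and SPL15 were also among the 15, as were ARF10 and ARF17, which are targets of miR160, MYB101, a target of miR159, and NLA, a ubiquitin ligase gene that is a target of miR827 in phosphate homeostasis. These matches are shown for AGO2, AGO3 and MYB101, with capitals at the bases that differ from the microRNA gene's sequence printed on the line after it. Positions are counted from 1 at the 5′ end.

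AGO2: uuagauucacgcacaaacucU

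MIR403 beside AGO2: uuagauucacgcacaaacucG

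AGO3: uuagauucacgcacaaacuUC

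MIR403 beside AGO3: uuagauucacgcacaaacuCG

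MYB101: uuuggauugaaggAagcucua

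MIR159a beside MYB101: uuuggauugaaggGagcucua

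AGO2, an antiviral Argonaute, differed from MIR403 by G21U and had 19624 reads antisense to the gene. AGO3 differed by C20U and G21C and had 871 reads. MYB101 differed from MIR159a by G14A and had 140 reads, 139 of them this sequence. Further substitutions were A15G at AT2G34010 against MIR159a, U21C at NLA against MIR827 and U15C at ARF17 against MIR160b. Whether these reads came from the coding gene or were assigned there by their likeness to the microRNA was not tested.

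On coding genes in general, the strand of the gene was known for 175 of 214 loci. Of these, 114 were read from both strands, 42 mainly from the sense strand and 19 mainly from the antisense strand. Loci read from both strands had a median length of 988 bp and a median of 6.31% of reads in the leading sequence. Sense loci had a median length of 272 bp and 21.1% of reads in the leading sequence. The 17 phased loci (score of at least 30) among the 175 were all in the class read from both strands, which follows from the score being given for that class only.

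Overlap with genes set the 21 nt loci apart from some classes of the table and not from others. Of the 341, 97.4% (95.05% to 98.8%, exact 95% binomial interval, counting error only) overlapped a gene and 74.2% a coding gene, against 49.0% and 23.7% of the 22 or 23 nt loci and 46.1% and 17.4% of the 24 nt loci. The loci rich in long reads overlapped genes and coding genes more often still, in 99.2% and 93.0%, and all 74 of the authors' microRNA loci overlapped a gene. The leading sequence began with U in 58.1% of them, against 27.9% of the 22 or 23 nt loci, 10.7% of the 24 nt loci, 37.9% of those rich in long reads and 66.2% of the authors' microRNA loci; a 5′ U is known to favour loading into AGO1. At least 0.8 of the reads came from 1 strand in 50.4% of the 21 nt loci, against 58.8% and 14.8% of the 22 or 23 nt and 24 nt loci, 95.1% of those rich in long reads and 100% of the authors' microRNA loci. Chromosome 1 held 34.9% of the 21 nt loci and 23.9% of all loci.

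Transcripts that the authors added to the annotation as new RNAs lay antisense to coding genes at many of these loci. Among the 219 loci of 21 nt on coding genes of known strand, 24.7% overlapped such an antisense transcript, against 21.96% of the loci rich in long reads, 4.55% of the 22 or 23 nt loci and 2.01% of the 24 nt loci. Seen from the transcripts, 3.66% of the 1475 antisense ones held a locus of 21 nt and 2.37% one of 24 nt. Of the 403 new transcripts that overlap no coding gene, 2.98% held a locus of 21 nt and 42.9% one of 24 nt. The 54 loci of 21 nt with an antisense new transcript were mostly small. The largest were on bZIP7 (4397 reads, phasing score 38.1), RDUF1 (3643 reads, score 376.2) and AT2G18570 (2197 reads, score 23.8), with RDUF1 also carrying the annotated MIR5651.

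The genes under the loci were next followed in the other assays. The 341 loci overlapped 264 coding genes (host genes), of which 254 were in the coding count table. Footprints summed to between 7156329 and 12817826 per library, poly(A) RNA to between 18262547 and 26746252 and dsRNA to between 2735264 and 8249514. IPS1, a transcript induced by phosphate starvation, had 725 and 490 dsRNA counts and 3142 and 3275 poly(A) counts in low phosphate libraries, against 8 and 4 dsRNA counts and 78 and 4 poly(A) counts in control libraries. All 7 root marker genes were detected in control poly(A) RNA, at 5.72 CPM (counts scaled to the library total) or more, but green tissue markers were detected as well, RBCS1A at 47.8 and 119 CPM in the 2 control libraries. In these bulk samples, fewer cells of a type and less RNA per cell cannot be told apart.

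The dsRNA of the PPR host genes was high for their poly(A) RNA in control roots. Of 12 PPR genes with a locus of 21 nt, 11 were higher in dsRNA than in poly(A) RNA and none lower (edgeR quasi-likelihood test, Benjamini-Hochberg adjusted p under 0.05 over 20482 genes), where 23.5% of all genes tested were called higher and 22.7% lower. The median log2 ratio of the 12 was 2.31, against 0.01 over all genes tested. The kits and extracts of the 2 assays differ, and PPR genes are near-identical in parts, so that the assignment of reads to single members is uncertain. The plants differ too, since the poly(A) RNA came from the tagged line and the dsRNA from roots labelled Col-0. Assay and plant line therefore cannot be told apart in this ratio. The poly(A) counts are labelled as counts over coding sequence and the dsRNA counts only as counts by gene. The counted features may therefore differ, here and in the ratios of single genes below. The ratio is relative to the other genes, and the small RNA did not enter this test.

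AT1G62910, one of the 2 most phased coding loci, had 6.06 and 4.62 CPM in dsRNA, against 0.486 and 0.383 CPM in poly(A) RNA of control roots, a log2 ratio of 3.95 ± 0.68 (SE, edgeR adjusted p = 9.24e-05). AT1G63400 had 6.67 and 6.47 CPM in dsRNA, against 0.262 and 0.876 CPM in poly(A) RNA. AT1G63130 had 8.85 and 9.86 CPM in dsRNA, against 2.09 and 2.85 CPM in poly(A) RNA. In all 3 genes, which were called on these same libraries, both dsRNA libraries were above both poly(A) libraries.

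AT1G63330 had 30 counts in dsRNA and 0 in poly(A) RNA over the 2 control libraries of each, which makes it at least 39.1-fold higher in dsRNA on the CPM scale against a floor of 3 counts over the group. AT1G62590 had 64 counts in dsRNA and 1 in poly(A) RNA, a ratio of 251 (43.4 to 10050, exact 95% interval, counting error only). RPF3 had a log2 ratio of 1.87 ± 0.37 and RPF2 one of 1.47 ± 0.42 (SE, edgeR adjusted p = 0.000339 and 0.0073). AT5G16640 on chromosome 5 was the 1 of the 12 that was not called, with 2.18 and 1.85 CPM in dsRNA against 1.61 and 1.64 CPM in poly(A) RNA (log2 ratio 0.69 ± 0.52 SE, edgeR adjusted p = 0.288). The 2 PPR genes of the list without a locus of 21 nt that are in the table, NG1 and AT5G41170, were not called either, with log2 ratios of 1.92 ± 0.80 and 0.90 ± 0.43 (SE, edgeR adjusted p = 0.0564 and 0.0913).

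**Figure D4:**
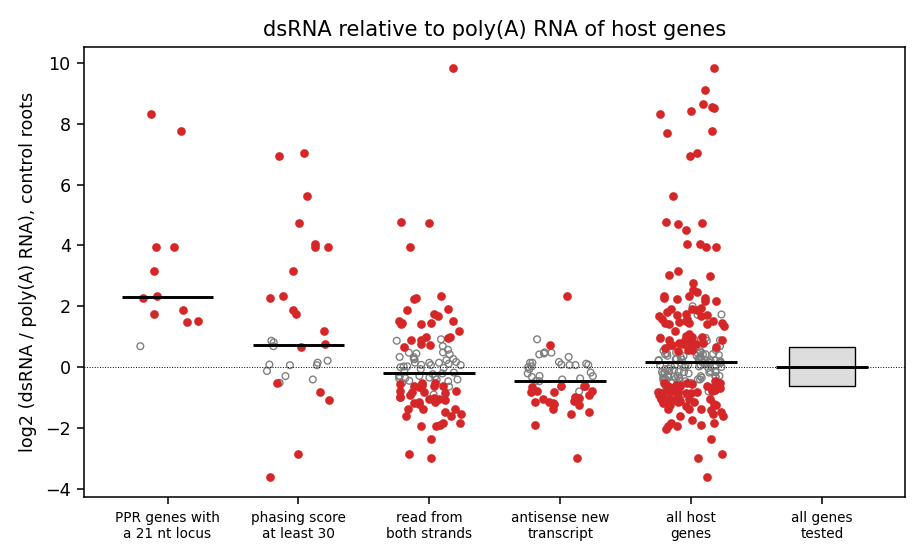
log2 ratio of dsRNA to poly(A) RNA in control roots for host genes of the 21 nt loci and, at the right, the quartiles of all 20482 genes tested (box). Points are genes, filled red where edgeR called them and open where not, and lines are medians; the sets overlap, and points above 7 include genes with 0 or 1 poly(A) counts, whose fitted ratios are not bounds. The PPR median was 2.31 and the median of hosts with an antisense new transcript was -0.45.

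Hosts with an antisense new transcript lay on the other side. Of 53 tested, 2 were higher in dsRNA than in poly(A) RNA and 23 lower (edgeR), 3.77% and 43.4%, where 23.5% and 22.7% of all genes were called. Their median log2 ratio was -0.45. Without either control dsRNA library, fewer of the 53 were called each way, and so were fewer of all genes. Without the low-count filter, 4 of the 53 were higher and 24 lower, where 4859 and 5021 of 24041 genes were called. HAM2 and HAM3, GRAS transcription factor genes that are targets of miR171, were among the 23; HAM3 is named after its value was seen, because its locus shares its leading sequence with that of HAM2. HAM2 had 12.0 and 16.3 CPM in dsRNA, against 55.0 and 46.4 CPM in poly(A) RNA (log2 ratio -1.53 ± 0.21 SE, edgeR adjusted p = 1.02e-05). The 2 that were higher were HISN5B, a gene of histidine synthesis, and AT1G35560, named after its value was seen. HISN5B had 34.6 and 25.6 CPM in dsRNA, against 6.99 and 8.54 CPM in poly(A) RNA. Reads of a gene and of its antisense transcript cannot be told apart here, since the sources used here do not state the strand setting of the counting.

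Over all 237 host genes tested, 76 were higher in dsRNA than in poly(A) RNA and 63 lower, which is 32.1% and 26.6%, against 23.5% and 22.7% of all 20482 genes tested, with a median log2 ratio of 0.17. Without control dsRNA library 1, fewer hosts were called each way, and so were fewer of all genes. Without the 12 PPR genes, 65 and 63 of 225 were called, with a median of 0.09. Hosts of loci with a phasing score of at least 30 had 15 higher and 5 lower of 32 (median 0.73), and 8 and 5 of 24 without the PPR genes (median 0.12). Hosts of the loci that resemble a microRNA had 7 higher and none lower of 15, with a median of 1.18. In the small RNA pathway list of 12 genes, 6 were higher and none lower, among them DCL1 and AGO1, which carry 21 nt loci, and DCL2, SGS3 and DCL4, which do not. Of the 11 listed NB-LRR genes, 8 were higher and none lower, including AT5G43730, AT5G43740 and AT1G12290 with loci. Only 4 of the 11 carry a 21 nt locus, so genes without one were also among the 8. The median of the 11 was 0.99.

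Single hosts stood far out. AT3G57770, whose locus also overlaps the U2.3 snRNA gene, had 142 and 144 CPM in dsRNA, against 0.486 and 0.493 CPM in poly(A) RNA. DEG14, whose locus is on MIR5657, had 48.5 and 66.5 CPM in dsRNA, against 3.44 and 2.08 CPM in poly(A) RNA. UPL1, a ubiquitin ligase gene with a sense locus of 347 reads, had 350 and 352 CPM in dsRNA, against 67.6 and 64.0 CPM in poly(A) RNA. AT5G44585, whose locus of 3717 reads on MIR5628 had a phasing score of 137.6, went the other way with 7.15 and 3.70 CPM in dsRNA, against 95.7 and 87.8 CPM in poly(A) RNA. The 10 higher hosts of smallest p also held alpha-ADR, AT2G27390, HISN5B, AT3G20760, AT1G62590, AT1G77230 and AT5G28920. AT3G20760 had 77 counts in dsRNA and 0 in poly(A) RNA, at least 101-fold higher against the same floor. The 10 lower hosts of smallest p also held PXMT1, EDA4, SOB3, AT3G10815, HAM2, ATL8, AT5G03700, AT3G15250 and UCNL, with log2 ratios from -1.24 at AT5G03700 to -2.98 at ATL8.

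Low phosphate changed the dsRNA of some host genes. Of 212 tested, 18 were higher and 14 lower in low phosphate than in control roots (edgeR adjusted p under 0.05), 8.49% and 6.604%, where 10.2% and 5.57% of all 17570 genes tested were called, so the hosts were near the background. The median log2 change was -0.01 over hosts and -0.02 over all genes. No PPR, NB-LRR, auxin receptor or small RNA pathway gene of the lists was called, of 11, 10, 4 and 12 tested.

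PXMT1, a gene of the methyltransferase family that includes caffeine-type enzymes, had the smallest p. It had 42.5 and 34.0 CPM in low phosphate dsRNA, against 4.97 and 7.08 CPM in control dsRNA (log2 change 2.93 ± 0.30 SE, edgeR adjusted p = 3.94e-20). Its locus (chr1:24873877-24874531) had 271 reads from both strands in control roots and a phasing score of 78.5. In poly(A) RNA it had 84.6 and 69.9 CPM in low phosphate libraries, against 59.97 and 44.6 CPM in control libraries, a change of 0.56 ± 0.27 (SE, edgeR adjusted p = 0.614). In control roots, PXMT1 was among the hosts lowest in dsRNA for its poly(A) RNA (log2 ratio -2.84 ± 0.26 SE, edgeR adjusted p = 3.64e-08).

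UCP5, a mitochondrial carrier gene, had 75.2 and 51.6 CPM in low phosphate dsRNA, against 19.2 and 20.3 CPM in control dsRNA (log2 change 1.89 ± 0.25 SE, edgeR adjusted p = 1.1e-12). MYB51, a regulator of indole glucosinolate synthesis, had 48.0 and 44.2 CPM in low phosphate dsRNA, against 16.0 and 11.1 CPM in control dsRNA. AT3G10815 and EDA4 followed, with log2 changes of 2.23 ± 0.42 and 1.35 ± 0.26 (SE, edgeR adjusted p = 2.11e-06 and 4.29e-06). The others of the 10 higher genes with the smallest p were AT5G62340, BGLU21, AT1G79160, AT1G61930 and AT2G47440, with log2 changes from 0.91 at BGLU21 to 1.34 at AT5G62340. BGLU21 is a beta-glucosidase gene of roots.

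AT5G48110 had the smallest p of the lower genes, with 15.8 and 18.3 CPM in low phosphate dsRNA, against 46.8 and 45.9 CPM in control dsRNA (log2 change -1.27 ± 0.26 SE, edgeR adjusted p = 2.44e-05). The transcription factor gene bZIP3 had 4.70 and 6.95 CPM in low phosphate dsRNA, against 17.8 and 15.1 CPM in control dsRNA (log2 change -1.37 ± 0.35 SE, edgeR adjusted p = 0.00119). HISN5B, CARAB-AK-LYS, AT5G28919, bZIP6, AT2G18560, AT3G49790, AT5G03700 and AT4G15270 complete the 10 lower genes, with log2 changes from -0.80 at AT5G03700 to -1.22 at AT4G15270. In poly(A) RNA, the log2 change was 1.26 at AT5G62340, 0.63 at BGLU21 and -0.91 at bZIP3, against 1.34, 0.91 and -1.37 in dsRNA. At EDA4 and AT5G48110 it was 0.24 and 0.09, against 1.35 and -1.27 in dsRNA. Whether the dsRNA of these hosts changed beyond their poly(A) RNA was not tested. In all 32 called hosts the low phosphate and control dsRNA libraries did not overlap in CPM. The calls were made on these same libraries, so this adds no support to them.

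**Figure D5:**
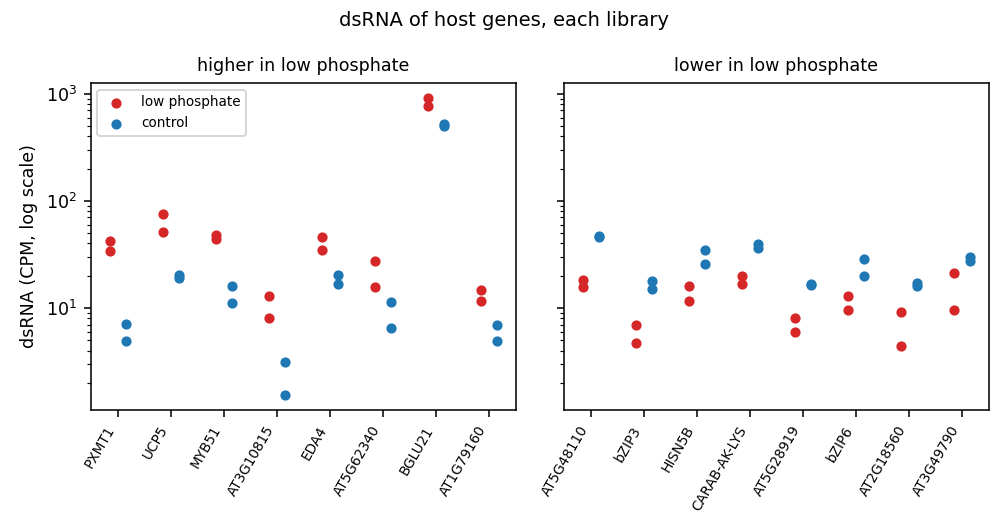
dsRNA in CPM (log scale) in each library for the 8 higher and the 8 lower host genes of smallest p; red points are the 2 low phosphate libraries and blue points the 2 control libraries. PXMT1 has 42.5 and 34.0 CPM in low phosphate roots, against 4.97 and 7.08 CPM in control roots.

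The dsRNA calls leaned on single libraries. Among the hosts and over all genes tested alike, fewer were called without either control library and more without low phosphate library 2. Each of these fits left 1 library in a group. PXMT1, UCP5, MYB51 and AT3G10815 were higher, and AT5G48110 lower, under all 8 alternatives, and the other 27 hosts were not called under at least 1 of them.

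In poly(A) RNA and footprints no host was called by edgeR. In poly(A) RNA, 0 of 221 hosts were higher and 0 lower, where 0.931% and 0.252% of 19866 genes were called, and 18 hosts had an unadjusted p under 0.05. DESeq2 called 3 hosts higher and none lower, where it called 316 and 113 of all 19866 genes. In footprints, 0 of 221 were called in either direction, where 0.911% and 0.282% of all genes were called, and 20 hosts had an unadjusted p under 0.05. DESeq2 called 1 host higher and 2 lower, where it called 322 and 159 of all 19866 genes. The smallest p in both assays belonged to BGLU21. It had 594.8 and 692 CPM of poly(A) RNA in low phosphate libraries, against 398 and 443 CPM in control libraries (log2 change 0.63 ± 0.15 SE, edgeR adjusted p = 0.119). AGO1 had 181 and 171 CPM of poly(A) RNA in low phosphate libraries, against 224 and 223 CPM in control libraries (log2 change -0.34 ± 0.14 SE, edgeR adjusted p = 0.535). ARF4, AFB2 and AFB3 had poly(A) changes of -0.18 ± 0.19, -0.11 ± 0.16 and -0.10 ± 0.15 (SE, edgeR adjusted p = 0.91, 0.943 and 0.945).

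TAS transcripts carried ribosome footprints in low phosphate and in control roots. Of 43 features of the noncoding table that overlap a 21 nt locus and were tested, 0 were higher and 4 lower in low phosphate footprints (edgeR), where 1.96% and 5.73% of all 611 noncoding features were called, and 8 of the 43 had an unadjusted p under 0.05. The median log2 change was -0.72 over the 43 and -0.42 over all 611, with library sizes taken from the coding totals. DESeq2 called 2 lower, the column totals of the noncoding table gave 2 lower, and no feature was called with the replicate number as a block.

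TAS2 had 63 and 86 footprints in low phosphate libraries (4.92 and 9.62 CPM), against 230 and 111 in control libraries (32.1 and 15.2 CPM), a log2 change of -1.71 ± 0.47 (SE, edgeR adjusted p = 0.0056). TAS1B had 4.45 and 9.17 CPM in low phosphate libraries, against 23.5 and 12.7 CPM in control libraries (log2 change -1.42 ± 0.47 SE, edgeR adjusted p = 0.0351). TAS1C had 8.97 and 15.9 CPM in low phosphate libraries, against 39.8 and 27.6 CPM in control libraries (log2 change -1.44 ± 0.48 SE, edgeR adjusted p = 0.0359). The libraries of the 2 conditions did not overlap for TAS2, TAS1B or TAS1C, which were called on these same libraries. Over DESeq2, the fit without the low-count filter, column totals and the replicate block, the adjusted p ranged from 0.0253 to 0.223 for TAS2, from 0.0571 to 0.345 for TAS1B and from 0.0255 to 0.399 for TAS1C, so that TAS1B was called under none of these 4 and all 3 were lost under the block. The fourth called feature was a new RNA at chr1:24912720-24913450, which overlaps the locus of MIR157a.

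TAS1A had 6.94 and 17.0 CPM in low phosphate libraries, against 26.8 and 22.7 CPM in control libraries (log2 change -1.06 ± 0.47 SE, edgeR adjusted p = 0.165). TAS3 had 11.1 and 10.6 CPM in low phosphate libraries, against 17.6 and 15.2 CPM in control libraries (log2 change -0.59 ± 0.46 SE, edgeR adjusted p = 0.506). Without low phosphate library 1 or without control library 1, none of the features was called, and the log2 change of TAS2 was then -1.30 and -1.07. The poly(A) columns of the noncoding table went against their labels, with 95 and 4 counts of IPS1 in the libraries labelled low phosphate, against 3925 and 4239 in those labelled control. No direction was therefore drawn from them, and whether the poly(A) level of the TAS transcripts moved with their footprints was not tested.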

How the data were processed

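The authors handled reads with CASAVA 1.8, TopHat 1.3.1 and Bowtie2 2.2.9 on TAIR10, per the submitters' processing notes; which tool did what is not stated there. The deposited coding, dsRNA and noncoding tables hold raw counts. The deposited small RNA table gives, per the file headers, counts by read length, the fraction of reads on the top strand and a phasing score; other columns of that table, as the authors deposited them, are names, positions and sequences. Its unique read column is 0 throughout, so shared reads could not be set aside. The UTR values in RPKM, which the authors deposited, served only for gene strand and positions, and the uORF table was not used.

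Loci were matched to genes by at least 1 shared base, with a reference table of assembly TAIR10.1 for names and neighbourhood; 99.6% of 64869 deposited UTR intervals lay within the same gene there. Counts were tested with edgeR 4.0.16 (TMM, default expression filter, quasi-likelihood, two-sided, Benjamini-Hochberg over all features, 0.05) in R 4.3.3. For low phosphate against control, the dsRNA libraries were fitted alone. Where dsRNA was set beside poly(A) RNA, libraries of both assays entered a joint fit. The noncoding fit took footprint library sizes from the coding totals. Errors of log2 changes are SE. DESeq2 1.42.0 was an alternative. The tests were also run on simulated counts with a single fixed dispersion. That dispersion was not matched to each assay, so the run lends no support to the calls. Intervals and floors cover counting error only. The poly(A) columns of the noncoding table were not fitted.

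Loci and host genes were named by rule: all on listed genes, the 10 with most reads or highest phasing score, and up to 10 called hosts of smallest p each way. The members and lists were chosen with earlier results of these data known. The figures were drawn with matplotlib 3.10.9 in Python 3.11.15.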

Additional observations from a re-analysis of the deposited data

How the results depend on the processing

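The rule set the number of loci: it was 221 with long reads under 0.1 and 2166 with long reads under 0.5. The share that overlaps a gene was 87.7% when at least 0.5 of the locus had to lie inside it. The share read from 1 strand was 84.1% with long reads under 0.5, 41.6% at a strand minimum of 0.9 and 39.7% without loci on microRNA genes, an alternative chosen after seeing the data. The share with a high phasing score was 14.5% and 1.66% with long reads under 0.1 and 0.5, and 16.7% and 6.74% at scores of at least 15 and 50. A minimum of 50 reads removed nothing, and unique reads could not be used.

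In poly(A) RNA, 3 hosts were higher by DESeq2, where 316 of all 19866 genes were. Without the low-count filter 2 hosts were higher, where 285 of 23418 genes were. In footprints, DESeq2 gave 1 higher and 2 lower hosts, where 322 and 159 of 19866 genes were called. No filter gave 1 lower host, where 125 of 23418 genes were lower. In dsRNA, DESeq2 gave 11 higher and 5 lower, and leaving out 1 library gave 5 to 38 higher and 1 to 25 lower. For dsRNA against poly(A) RNA, leaving out 1 library gave 54 to 69 higher and 38 to 51 lower, with 9 to 11 of the 12 PPR genes higher and 14 to 21 of the 53 hosts with an antisense transcript lower. Over all genes, DESeq2 called 1358 higher and 525 lower of 17570 in dsRNA. In both dsRNA comparisons, leaving out 1 library also moved the calls over all genes, so the host ranges do not set the hosts apart. Each of these fits left 1 library in a group. For noncoding footprints, DESeq2 gave 2 lower, where 26 of 611 features were. Column totals of the table gave 2 lower, where 28 of 676 were, and no filter 1, where 30 of 1781 were. Leaving out 1 library moved the lower calls, over all features as well.

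With the replicate number as a replicate block, poly(A) RNA had 2 higher hosts, where 296 of 19866 genes were higher. Footprints had 1 higher and 1 lower host, where 275 and 143 of 19866 genes were called. In dsRNA, 12 hosts were higher and 9 lower, where 1564 and 822 of 17570 genes were. Noncoding footprints had 0 lower, where 24 of 611 features were. Same-numbered libraries deviated with correlations of 0.135 (poly(A) RNA), -0.03 (footprints), -0.02 (dsRNA), -0.0078 (dsRNA against poly(A) RNA) and 0.0479 (noncoding footprints). The labels do not say that a shared number marks a shared culture or day, and with 2 pairs these values do not settle whether the libraries are paired. The cause of these shifts was not tested. There were 2 libraries per group and no small RNA replicate, and calls were not related to depth here.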
